A study of Homo sapiens with 16 samples.

Results

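The comparison described here asks what SMYD2 added to the transcripts of SAOS cells that had also been given RB. It uses 8 of the 16 arrays of the series, chosen by their labels alone: 4 arrays of cells given RB together with SMYD2 and 4 arrays of cells given RB alone. SAOS is an established human osteosarcoma cell line that lacks functional RB protein. Per the labels, the RB arm received human RB1 and the combined arm received human RB1 and mouse SMYD2, both by transient transfection, so an array averages cells that took up the constructs and cells that did not. The other 8 arrays came from cells without transfection (control, 4 arrays) and from cells given mouse SMYD2 alone (4 arrays), and are used only to place the comparison. The labels name no empty-vector arm and no amount of DNA, so the combined arm may have received more or other DNA than the RB arm. Arrays of every group carry the numbers 1, 3, 4 and 5, and same-numbered arrays of RB and RB plus SMYD2 were set against each other as pairs. The labels do not tie the arrays to separate cultures, so the spread that p-values rest on may be technical. All levels are log2 RMA signals of total RNA on the Affymetrix U133 Plus 2.0 array, and a difference of RB plus SMYD2 minus RB is on that log2 scale. In such bulk RNA, fewer cells in a cell cycle phase and less RNA per cell cannot be told apart.

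The retinoblastoma protein RB binds the E2F transcription factors and holds back the genes of S phase. Cells that are arrested this way also lose the later G2 and mitosis genes, which are repressed in resting cells by the DREAM complex of p130 or p107, E2F4 and the MuvB core, and activated in G2 by B-MYB and FOXM1. SMYD2 is a lysine methyltransferase whose known substrates include p53, HSP90 and RB, and methylated RB can be bound by the chromatin reader L3MBTL1. E2F acts through E2F sites in promoters of S phase genes, and the MuvB complexes through the cell cycle gene homology region (CHR), often with CCAAT boxes bound by NF-Y nearby.

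Of the 95 genes that fell, 58 belong to cell cycle lists, which hold 260 of the 19775 genes tested. The promoters of genes that carry the comparison are therefore shown first. They are those of the 6 lower cell cycle genes of smallest p that have a promoter in the RefSeq table. After them come the first called histone gene and the first called matrix gene with a promoter there, both of which rose. Each line holds the 150 bases before the annotated start, read 5′ to 3′ on the gene's strand, from GRCh38.p14. The windows are chr5:163460482-163460631 (plus strand) for HMMR, chr10:93496462-93496611 (plus) for CEP55, chr4:120066849-120066998 (minus) for MAD2L1 and chr9:89311045-89311194 (plus) for CKS2. For CLSPN the window is chr1:35769979-35770128 (minus), for BUB1B chr15:40160919-40161068 (plus), for H2AC8 chr6:26216771-26216920 (plus) and for COL6A2 chr21:46097962-46098111 (plus). Capitals mark exact matches, on either strand, to the CHR hexamer TTTGAA, to the E2F octamers TTTCCCGC, TTTCGCGC, TTTGGCGC and TTTGCCGC, or to the pentamer CCAAT.
HMMR: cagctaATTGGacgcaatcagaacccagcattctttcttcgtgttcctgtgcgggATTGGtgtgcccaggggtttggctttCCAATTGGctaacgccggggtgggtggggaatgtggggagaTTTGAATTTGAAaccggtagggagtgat
CEP55: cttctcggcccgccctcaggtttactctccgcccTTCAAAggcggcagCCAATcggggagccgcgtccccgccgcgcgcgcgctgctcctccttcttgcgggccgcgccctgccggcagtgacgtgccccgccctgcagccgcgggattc
MAD2L1: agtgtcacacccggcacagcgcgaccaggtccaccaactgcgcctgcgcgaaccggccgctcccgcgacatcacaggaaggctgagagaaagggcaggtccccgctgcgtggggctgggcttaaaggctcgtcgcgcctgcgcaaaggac
CKS2: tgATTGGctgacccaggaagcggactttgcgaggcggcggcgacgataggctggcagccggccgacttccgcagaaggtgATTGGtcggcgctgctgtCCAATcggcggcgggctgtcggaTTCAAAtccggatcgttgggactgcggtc
CLSPN: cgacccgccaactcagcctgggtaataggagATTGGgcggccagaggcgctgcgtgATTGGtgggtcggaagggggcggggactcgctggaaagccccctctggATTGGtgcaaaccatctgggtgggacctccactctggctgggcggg
BUB1B: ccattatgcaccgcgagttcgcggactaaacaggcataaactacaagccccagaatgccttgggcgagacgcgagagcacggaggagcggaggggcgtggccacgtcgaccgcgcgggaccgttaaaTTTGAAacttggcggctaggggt
H2AC8: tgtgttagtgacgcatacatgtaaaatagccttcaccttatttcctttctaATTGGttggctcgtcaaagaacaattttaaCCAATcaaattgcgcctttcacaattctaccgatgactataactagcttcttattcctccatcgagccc
COL6A2: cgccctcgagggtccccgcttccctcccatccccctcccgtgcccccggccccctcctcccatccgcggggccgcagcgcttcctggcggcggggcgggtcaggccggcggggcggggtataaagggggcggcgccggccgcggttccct
HMMR had a pair of overlap-free CHR matches starting 28 and 22 bases before the start, CKS2 had one at 29 and BUB1B one at 23. CEP55 had its match farther out, at 116 bases. The CLSPN window held 3 CCAAT matches, the H2AC8 window 2, and the MAD2L1 and COL6A2 windows held none of these letters. In the 250 bases before the start, a CHR match stood in 23.08% (18 of 78) of the promoters of called lower genes, in 9.38% (3 of 32) of called higher genes and in 10.59% of the 15384 tested genes with a promoter. Over all 27305 promoters of the table, 13.57% held a CHR match, 2.79% an E2F match and 33.04% a CCAAT match. CCAAT stood in 55.13% of the called lower and 34.38% of the called higher promoters, and an E2F octamer in 7.69% and 6.25%. Among the lists, CHR matches were found in 14 of 27 promoters of the kinesin and spindle list and 8 of 16 of the list of APC/C regulators and mitotic cyclins, but in 0 of 23 of the origin licensing list, where 26.09% held an E2F octamer. Promoters of replication-dependent histones, a list on the higher side, held a CHR match in 32.43% (12 of 37), a CCAAT match in 86.49% and an E2F octamer in 24.32%, each a larger share than in the called lower genes. These matches describe the letters of the windows and were not tested as binding sites.

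With SMYD2 added to RB, many genes of mitosis and some of DNA replication and repair were lower than with RB alone, and a smaller, mixed set was higher. Of 19775 genes, 133 passed the test (0.673%; limma with the pair number as a block, Benjamini-Hochberg adjusted p under 0.05): 95 were lower (0.480%) and 38 higher (0.192%). The changes were small. Their absolute size ran from 0.21 to 0.97 with a median of 0.41, and 0 genes differed by over 1 on the log2 scale. In 76 of the 133 the 4 arrays of one group lay wholly apart from the 4 of the other. Over all genes 1.98% lay apart on the lower side and 1.85% on the higher, but the 133 were picked by p from the same arrays. Of the 95 lower genes, 58 were in the 12 cell cycle lists, against 1 of the 38 higher genes, which was RB1 itself. These lists hold 260 of the 19775 genes. Of all genes measured, 48.1% had a difference below 0 and the median difference was 0.00. Among called lower genes with 2 or more probe sets, 38 of 50 had no probe set higher. Among such called higher genes, 15 of 17 had no probe set lower.

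**Figure D1:**
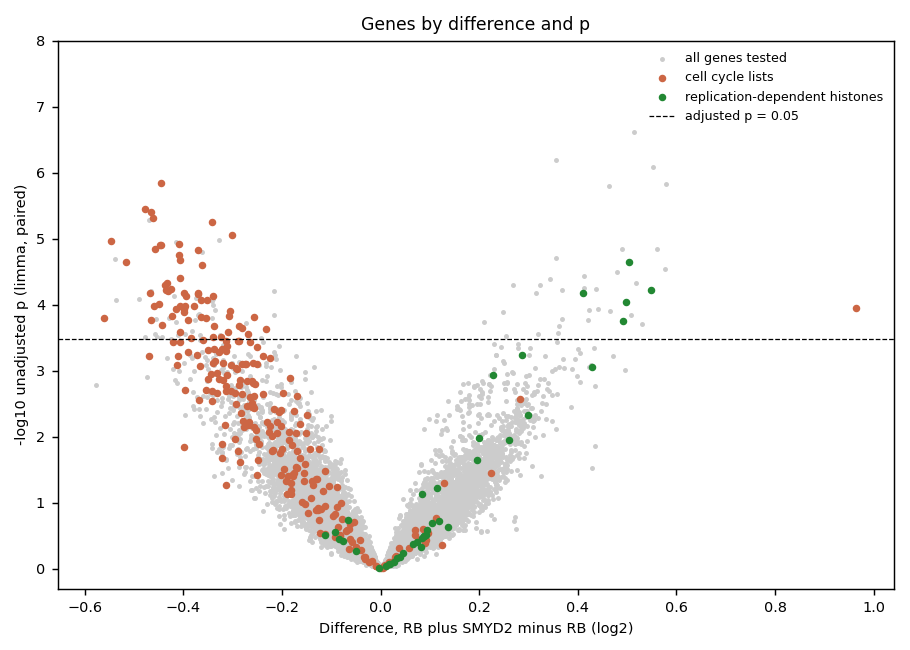
Each gene's difference, RB plus SMYD2 minus RB (log2, horizontal), against the −log10 of its unadjusted paired limma p (vertical), with the 12 cell cycle lists in orange, the replication-dependent histones in green, all other genes in grey and a dashed line at an adjusted p of 0.05. The orange points lie mostly left of 0 and above the cloud, 5 green points lie above the line on the right, and the orange point at 0.97 is RB1.

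The number of calls changed with the way the pairing and the variance were fitted and with single pairs. Without the pair number in the fit, 0 genes passed (smallest limma adjusted p = 0.465, with 1107 genes at an unadjusted p under 0.05 against 2132, or 10.8%, in the paired fit). With all 16 arrays and the block, 0 passed (smallest limma adjusted p = 0.0781). With the pairs and the block kept but no variance trend in eBayes, 0 passed (smallest limma adjusted p = 0.0908). With the number as a random block at its estimated correlation of 0.279, 0 passed as well (smallest limma adjusted p = 0.0900). Leaving out pair 1 or pair 4 also gave 0 calls, while leaving out pair 5 gave 284 and leaving out pair 3 gave 192. Weighting the arrays by their quality gave 481. Under every one of these settings all 133 genes kept their sign, and 118 of the 133 had an unadjusted p under 0.05 without the block. Changing the block or the variance trend, or adding the other groups, leaves each difference as it was in this balanced design. The sign could therefore change only where a pair was left out or the arrays were weighted. The 133 were also picked by p from these same arrays.

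RB1, the transfected gene, was itself higher in the combined arm. Its brighter probe set read 7.40, 7.43, 8.10 and 7.87 on the RB arrays numbered 1, 3, 4 and 5, and 7.90, 7.90, 9.25 and 9.62 on the RB plus SMYD2 arrays. Both groups stood above the control mean of 6.48, but they overlapped each other, and arrays 4 and 5 of the combined arm were by far the highest. The difference was 0.97 ± 0.17 (SE of the paired fit, n = 4 pairs; limma adjusted p = 0.0302), with pair differences of 0.50, 0.47, 1.14 and 1.75. An exact two-sided permutation of the 8 arrays gave p = 0.114, and the exact sign-flip test over 4 pairs gave 0.125, the smallest it can give. With the mean of both RB1 probe sets the difference was 0.52, because the dimmer set read 3.44 with RB and 3.51 with both. RB1 was thus higher in the same 4 pairs in which the cell cycle genes described below were lower, and its part in those differences was not tested.

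SMYD2 was nearly level between the arms, as measured by probes for the human transcript, while the construct was mouse. Its brightest probe set read 10.12, 10.19, 9.86 and 10.03 with RB and 10.16, 10.21, 10.18 and 10.18 with both. The difference of 0.13 did not pass the exact two-sided permutation test (p = 0.114), and the other 2 probe sets differed by -0.08 and -0.10. These human probes do not show whether the mouse construct was expressed. L3MBTL1, the reader of methylated RB, read between 6.34 and 6.72 on all 8 arrays and differed by 0.13 (exact permutation p = 0.171).

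Among the regulators of the cell cycle program FOXM1 and E2F7 fell, and no activating E2F passed the test. Of 21 measured members of the list of E2F, DP, pocket protein and MuvB genes, 2 fell and 1, RB1, rose. Over all genes 0.480% were called lower and 0.192% higher. The median difference of the list was -0.07. FOXM1, the activator of G2 and mitosis genes, read 9.19, 9.39, 9.28 and 9.34 with RB and 8.81, 9.16, 8.81 and 8.63 with both. The groups did not overlap, and the difference was -0.45 ± 0.08 (limma adjusted p = 0.0285). E2F7, an atypical E2F that represses E2F target genes, fell by 0.41 ± 0.07 on the log2 scale (adjusted p = 0.0292), though only 1 of its 2 probe sets was lower. Its paralogue E2F8 read 6.98, 6.80, 6.84 and 6.68 with RB and 6.33, 6.67, 6.15 and 6.28 with both, a difference of -0.47 ± 0.10 without overlap that missed the threshold (adjusted p = 0.0668).

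The activating E2Fs gave mixed values. E2F1 was level, at 8.82, 8.73, 8.78 and 8.999 with RB and 8.92, 8.70, 8.94 and 8.73 with both (difference -0.01 ± 0.08). E2F3 differed by -0.07 and E2F2 by -0.32 ± 0.08 (adjusted p = 0.102), the latter with no overlap of the arrays. E2F4, the E2F of the repressive DREAM complex, was 0.13 higher and E2F5, its close relative, 0.03 lower, with neither past the threshold. E2F6, a repressor that does not bind pocket proteins, differed by 0.08. Of the dimerisation partners, TFDP1 differed by -0.11 and TFDP2 by 0.07. The pocket protein RBL1 (p107) was 0.28 lower in the mean, but it was higher with both constructs in pair 3, where it read 5.86 with RB and 6.02 with both (adjusted p = 0.381). RBL2 (p130) differed by -0.02. MYBL2 (B-MYB), the activator that joins MuvB, was 0.28 lower in the mean (adjusted p = 0.178). Its relative MYBL1 differed by -0.41 (adjusted p = 0.0668), with 1 of 3 probe sets lower. The MuvB subunits LIN9, LIN37, LIN52, LIN54 and RBBP4 ranged from -0.18 to 0.01.

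Genes of mitosis made up 5 lists, with median differences from -0.25 to -0.37. All 30 measured kinesins and spindle factors were lower with both constructs (median -0.37); 16 passed the test, 15 had no overlap between the groups and 28 were lower in 4 of 4 pairs. Over all genes, 0.480% were called lower, 1.98% were lower without overlap and 9.54% were lower in 4 of 4 pairs. The mean of the list read 9.58, 9.63, 9.52 and 9.59 on the RB arrays and 9.21, 9.46, 9.14 and 9.12 on the combined arrays. The fall was thus smallest in pair 3 and largest in pair 5. HMMR, which targets TPX2 to spindle poles, and whose promoter carries the double CHR match, had the smallest p of the cell cycle genes. It read 10.71, 10.86, 10.62 and 10.59 with RB and 10.24, 10.50, 10.14 and 10.13 with both, a difference of -0.44 ± 0.05 (limma adjusted p = 0.00530). CEP55, which acts at the midbody in the last step of cytokinesis, read 9.67, 10.16, 9.89 and 9.72 with RB and 9.16, 9.66, 9.34 and 9.37 with both (-0.48 ± 0.06, adjusted p = 0.00975). The pair differences of CEP55 were -0.51, -0.49, -0.55 and -0.355, and its groups only just separated. KIF4A, a chromokinesin of the anaphase midzone, fell by 0.46 and DLGAP5, which stabilises kinetochore microtubules, by 0.44.

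**Figure D2:**
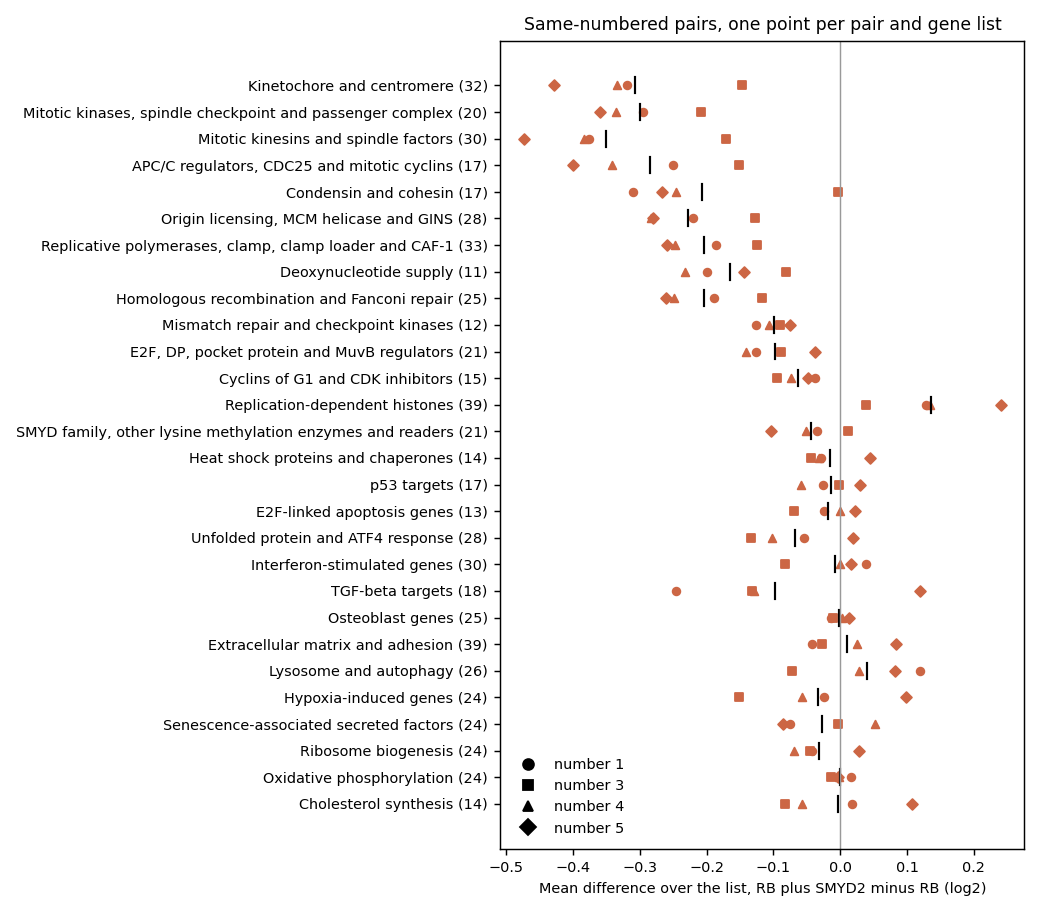
Mean difference over each gene list, RB plus SMYD2 minus RB (log2, horizontal), with 1 symbol per same-numbered pair, a black bar for the mean of the 4 pairs and the number of genes measured in brackets. The mitosis and replication lists lie left of 0 in all 4 pairs, with pair 3 nearest to 0 in the mitotic lists, and the histone list lies right of 0 in all 4.

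Kinetochore and centromere genes were all on the lower side too. The 32 measured members had a median difference of -0.34, with 8 called lower, 10 without overlap and 24 lower in 4 of 4 pairs. Over all genes these shares were 0.480%, 1.98% and 9.54%. SKA1, a subunit of the complex that couples kinetochores to shrinking microtubules, had the largest called fall of all genes. It read 7.82, 7.998, 7.86 and 8.05 with RB and 7.04, 7.68, 7.57 and 7.20 with both, a difference of -0.56 ± 0.10 (limma adjusted p = 0.0327). Arrays 1 and 5 of the combined arm were well below its arrays 3 and 4, which were themselves below every RB array. SPC24 and NDC80, subunits of the microtubule-binding NDC80 complex, fell by 0.47 and 0.44. SPC24 was lower in only 1 of its 2 probe sets. HJURP, the chaperone that loads the centromeric histone CENP-A, fell by 0.43 ± 0.07 (adjusted p = 0.0245), and its groups touched because RB array 4 read 9.78 and combined array 3 read 9.95. CENPE, the kinetochore motor, was 0.40 lower in the mean with an adjusted p of 0.318, because in pair 3 it read 8.23 with RB and 8.46 with both.

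Of the mitotic kinases, spindle checkpoint proteins and the chromosomal passenger complex, 10 of 20 fell (0.480% of all genes did) and the median was -0.34. BUB1, a kinase of the spindle checkpoint, read 8.10, 8.25, 7.98 and 7.86 with RB and 7.69, 7.91, 7.30 and 7.40 with both (-0.47 ± 0.08, limma adjusted p = 0.0245). Every pair moved down on this brightest probe set, although RB array 5 was below combined array 3. The dimmer BUB1 probe sets differed by -0.06, -0.20, -0.02 and 0.15, the last higher in 4 of 4 pairs. AURKA, the kinase of spindle pole maturation, fell by 0.46 ± 0.06 (adjusted p = 0.00986), NEK2, which separates centrosomes, by 0.45 and the checkpoint kinase TTK (MPS1) by 0.43. The checkpoint protein MAD2L1 fell by 0.34 and BUB1B (BUBR1) by 0.41, with adjusted p of 0.00986 and 0.0134. PLK1 read 7.12, 7.15, 7.30 and 7.26 with RB and 6.96, 6.998, 7.03 and 6.84 with both, lower on all arrays but with an adjusted p of 0.239. AURKB, the passenger complex kinase, was likewise lower without overlap (-0.33, adjusted p = 0.102).

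The list of APC/C regulators, CDC25 phosphatases and mitotic cyclins had 5 of 17 members called lower and a median of -0.30. The share called lower over all genes was 0.480%. CCNA2 (cyclin A2) read 9.75, 9.92, 9.62 and 9.60 with RB and 9.23, 9.58, 9.11 and 9.38 with both, which did not overlap (-0.39 ± 0.07, limma adjusted p = 0.0253). CKS2, a small subunit that binds CDKs, fell by 0.30 ± 0.04, PTTG1 (securin) by 0.31, FBXO5 (EMI1, an APC/C inhibitor) by 0.34 and the ubiquitin-conjugating enzyme UBE2C by 0.28. CCNB1 (cyclin B1) just missed the threshold, at -0.29 ± 0.06 (adjusted p = 0.0513). CDC25C, which activates CDK1, differed by -0.41 (adjusted p = 0.0779), the APC/C activator CDC20 by -0.37 (0.0668) and separase, ESPL1, by -0.35 (0.122). Condensin and cohesin genes had 3 of 17 called and a median of -0.25: NCAPG2 and NCAPG, condensin subunits, fell by 0.46 and 0.37 and the cohesion factor CDCA5 (sororin) by 0.36. This list had a pair mean of -0.003 in pair 3, against -0.31, -0.25 and -0.27 in pairs 1, 4 and 5. TOP2A, which untangles sister chromatids, went the other way in pair 3, reading 11.28 with RB and 11.74 with both, and did not pass (-0.31 ± 0.15, adjusted p = 0.474).

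**Figure D3:**
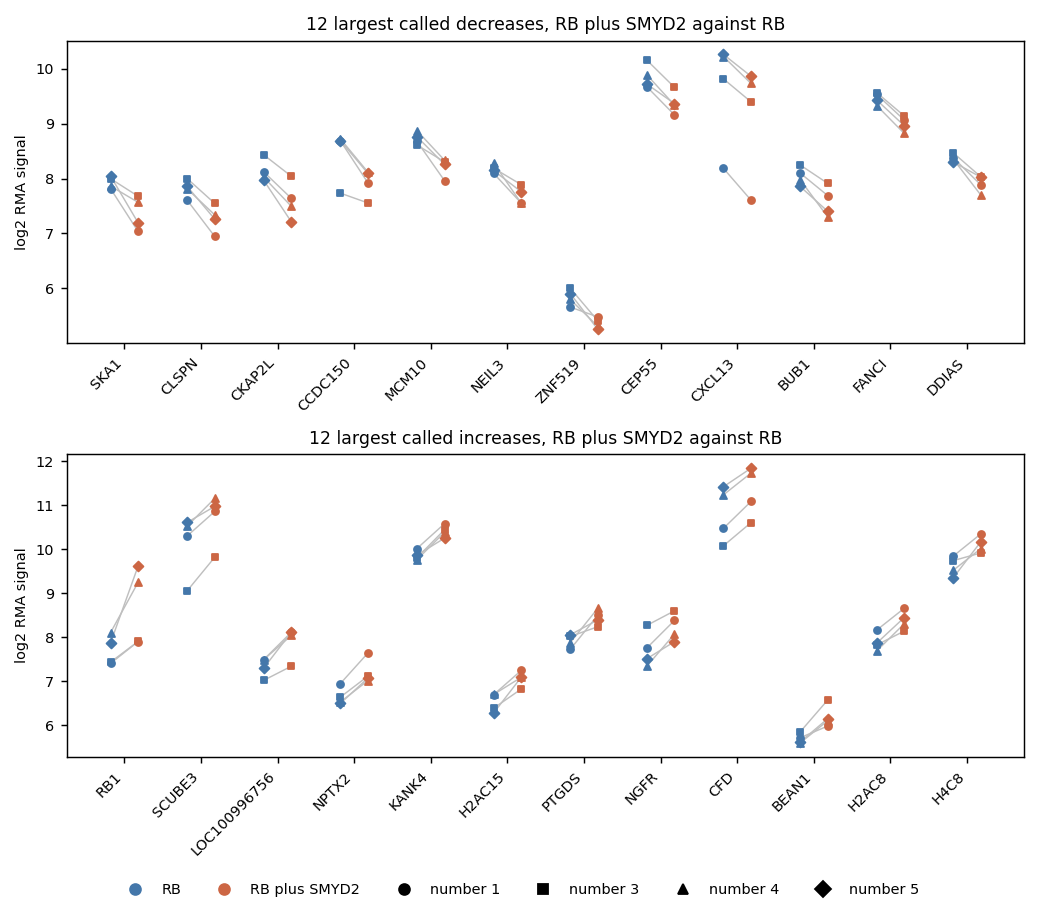
Log2 RMA signal (vertical) of the 12 genes with the largest called decreases (top) and increases (bottom), with blue symbols for RB, orange for RB plus SMYD2, symbol shape for the array number and a line joining each pair. All lines of the upper panel run down and all lines of the lower panel run up, while CXCL13, SCUBE3 and CFD differ more between pairs than within them.

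Genes of DNA replication were lower by less. Among 28 genes of origin licensing, the MCM helicase and GINS the median was -0.22, 27 were on the lower side and 3 were called. The share called lower over all genes was 0.480%. MCM10, which links the helicase to polymerase, read 8.68, 8.61, 8.87 and 8.76 with RB and 7.96, 8.30, 8.33 and 8.26 with both (-0.52 ± 0.08, limma adjusted p = 0.0155), with all 3 of its probe sets lower. The licensing factors CDC6 and ORC1 fell by 0.44 and 0.41, and CDT1 differed by -0.33 without overlap (adjusted p = 0.0873). MCM2 and MCM7, helicase subunits, were 0.22 and 0.27 lower in the mean with adjusted p of 0.223 and 0.207. Of 33 genes of the polymerases, the sliding clamp, its loader and CAF-1, 4 were called and the median was -0.20. CLSPN (claspin), the adaptor that activates CHK1 at stalled forks, lay at 7.61 or above with RB and read 6.95, 7.55, 7.34 and 7.26 with both (-0.55 ± 0.07, adjusted p = 0.0134). The clamp loader subunits RFC3 and RFC5 fell by 0.36 and 0.34, while the clamp PCNA differed by -0.17 (adjusted p = 0.133) and WDHD1, which ties polymerase alpha to the helicase, by -0.34 (0.0722). Of 11 genes of deoxynucleotide supply, RRM2, the S phase subunit of ribonucleotide reductase, fell by 0.41 ± 0.06 and thymidylate synthase, TYMS, by 0.23. TK1, DCK and RRM1 differed by -0.31, -0.28 and -0.24, none past the threshold.

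Repair genes were lower in part. Of 25 genes of homologous recombination and the Fanconi pathway 4 were called lower (0.480% of all genes were), with a median of -0.22. FANCI, which with FANCD2 marks interstrand crosslinks, read 9.53, 9.56, 9.33 and 9.43 with RB and 9.07, 9.14, 8.82 and 8.96 with both. These groups were well separated (-0.47 ± 0.06, limma adjusted p = 0.00975). MND1, which aids strand exchange in meiosis, fell by 0.44, and BARD1, the partner of BRCA1, and RAD51AP1 fell by 0.31 each. The recombination motor RAD54B differed by -0.35 without overlap (adjusted p = 0.0896) and the fork translocase FANCM by -0.32 (0.363). In the 12 genes of mismatch repair and checkpoint kinases the median was -0.08. Only CHEK1 (CHK1) fell, from 8.36, 8.52, 8.50 and 8.39 with RB to 8.01, 8.08, 8.20 and 8.02 with both (-0.36, adjusted p = 0.0327), while CHEK2, MSH6 and RAD1 differed by -0.26, -0.16 and -0.13. The 15 cyclins of G1 and CDK inhibitors had 0 calls in limma, with 6 lower and 2 higher at an unadjusted p under 0.05 (6.04% and 4.74% of all genes). CDKN3, a phosphatase of CDKs, differed by -0.33 (adjusted p = 0.0638), CCNE2 by -0.26, CDK2 by -0.26 and the inhibitor CDKN1C (p57) by 0.28. CDKN1A (p21) differed by 0.07 and cyclin D1 by 0.00.

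Read as a whole, the 12 cell cycle lists held 260 measured genes. Of these 236 had a difference below 0 (median -0.26), 172 were lower in 4 of 4 pairs, 79 were lower without overlap and 58 passed the test as lower. Over all genes these shares were 48.1%, 9.54%, 1.98% and 0.480%. The list mean differed by -0.23, -0.13, -0.26 and -0.28 in pairs 1, 3, 4 and 5. The same genes had a median difference of -0.53 between RB and control, a comparison that shares the RB arrays with this one and that called 3.80% of all genes lower and 4.02% higher, and of -0.77 between the combined arm and control. RB1, itself a member of these lists, differed by 0.50 in pair 1, by nearly the same in pair 3, and by 1.14 and 1.75 in pairs 4 and 5. Its part in the list differences was not tested.

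Replication-dependent histone genes went the other way. Their transcripts normally end in a stem-loop in place of a poly(A) tail. Of 39 measured members 32 were on the higher side, 5 rose (against 0.192% of all genes) and 0 fell. At the same time 12 were higher in 4 of 4 pairs (9.44% of all genes) and 5 were higher without overlap (1.85%). H2AC15 read 6.69, 6.38, 6.70 and 6.28 with RB and 7.24, 6.82, 7.09 and 7.09 with both, without overlap (0.55 ± 0.09, limma adjusted p = 0.0245). Its dimmer probe set differed by 0.04. H2AC8 read 8.16, 7.82, 7.69 and 7.86 with RB and 8.66, 8.14, 8.31 and 8.45 with both (0.50 ± 0.07, adjusted p = 0.0155), and only RB array 1 reached into the other group. H4C8 rose by 0.50, H2AC17 by 0.49 and the linker histone H1-2 by 0.41. H2BC21 differed by 0.43 (adjusted p = 0.0804). The median over all 39 was only 0.09, and it was larger among members with a mean of at least 6. Histone genes resemble each other closely, so 1 probe set may read several of them. Set against control, the 4 RB arrays were higher for H4C8 by 1.41 and for H2AC15 by 0.54, but lower for H2AC17 by 0.21.

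Among 21 genes of the SMYD family and of other lysine methylation enzymes and readers, EZH2 was the only one called (0.673% of all genes were). EZH2, the methyltransferase of Polycomb repressive complex 2 and a known E2F target, read 9.29, 9.18, 9.07 and 9.05 with RB and 8.85, 8.92, 8.68 and 8.76 with both (-0.34 ± 0.06, limma adjusted p = 0.0327). UHRF1, which maintains DNA methylation, differed by -0.23 (adjusted p = 0.0759) and the H3K9 methyltransferases SUV39H2 and SUV39H1 by -0.19 and -0.17. The relatives SMYD3 and SMYD5 differed by -0.07 and 0.08.

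Among the higher genes outside the lists, CFD (complement factor D, a serine protease also called adipsin) had the smallest adjusted p of all, 0.00474 in limma. It read 10.48, 10.08, 11.24 and 11.42 with RB and 11.09, 10.61, 11.73 and 11.84 with both. The groups overlapped because pairs 4 and 5 were brighter in both arms, yet every pair rose by 0.42 to 0.61 (0.51 ± 0.05). SCUBE3, a secreted glycoprotein, read 10.30, 9.05, 10.53 and 10.61 with RB and 10.86, 9.82, 11.16 and 10.97 with both (0.58 ± 0.06), again with array 3 low in both arms. Its dimmer probe sets differed by 0.15, 0.11 and 0.37. NPTX2 (neuronal pentraxin) rose by 0.56, the cytoskeletal adaptor KANK4 by 0.55, PTGDS (prostaglandin D2 synthase) by 0.53 and the neurotrophin receptor NGFR by 0.52. KANK4 read 10.02, 9.81, 9.77 and 9.87 with RB and 10.58, 10.45, 10.39 and 10.25 with both, which did not overlap. BEAN1 rose by 0.51 and the uncharacterised LOC100996756 by 0.58.

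Of 39 genes of extracellular matrix and adhesion, 2 rose, against 0.192% of all genes. Both encode chains of collagen VI, the beaded-filament collagen of the pericellular matrix. COL6A1 read 12.99, 13.05, 13.17 and 13.13 with RB and 13.29, 13.34, 13.57 and 13.57 with both, with no overlap (0.36 ± 0.04, limma adjusted p = 0.00530) and with all 8 of its probe sets higher. COL6A2 read 11.13, 11.23, 11.88 and 11.86 with RB and 11.71, 11.80, 12.25 and 12.18 with both (0.46 ± 0.05, adjusted p = 0.00530). The groups overlapped, since pairs 4 and 5 were brighter in both arms. COL6A3, the remaining classical chain, was dim (5.05 to 6.15 on the 8 arrays) and differed by 0.09. The collagen crosslinker LOX and the hyaluronan receptor CD44 differed by -0.32 and -0.31, neither past the threshold, and the list median was 0.01 with 21 of 39 on the higher side.

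Several of the largest decreases lay outside the lists. CXCL13, a B cell chemokine, read 8.19, 9.81, 10.22 and 10.26 with RB and 7.61, 9.39, 9.73 and 9.86 with both. Array 1 was far below the others in each arm, but every pair fell by 0.40 to 0.58 (-0.47 ± 0.06, limma adjusted p = 0.00986). CKAP2L, a spindle protein, fell by 0.54, NEIL3, a DNA glycosylase of replicating cells, by 0.49 and DDIAS, a DNA damage-induced apoptosis suppressor, by 0.47. CCDC150 fell by 0.54, but RB array 3 read 7.73 where the other RB arrays read 8.69, 8.72 and 8.69. Its dimmer probe sets differed by -0.12 and -0.19. ZNF519, a zinc finger protein, was dim, at or below 5.48 on the combined arrays, and fell by 0.48 (adjusted p = 0.0472).

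Genes of bone, stress and metabolism held few called genes, but only 0.673% of all genes were called. Lists of this size would hold few or no calls at that share, so these counts do not set the lists apart. Of 25 osteoblast genes 0 passed in limma, and the median was 0.02. At an unadjusted p under 0.05, 4 were lower and 2 higher, where all genes gave 6.04% and 4.74%. SPP1 (osteopontin) read 6.12, 5.83, 6.34 and 6.24 with RB and 5.62, 5.64, 5.61 and 5.996 with both (-0.42 ± 0.10, adjusted p = 0.103). RB alone stood 0.83 above control for this gene. OMD (osteomodulin) differed by 0.39 (adjusted p = 0.163), MSX2 by -0.32 and COL1A2 by -0.21. The 18 TGF-beta targets had 0 calls and a median of -0.10, with 14 on the lower side. At an unadjusted p under 0.05, 4 were lower and 3 higher. CCN2 (CTGF) differed by -0.47 (adjusted p = 0.0966), ID1 by -0.42, ID3 by -0.32 and TAGLN by -0.30. The pairs disagreed here, with list means of -0.25, -0.13 and -0.13 in pairs 1, 3 and 4 and 0.12 in pair 5. Among cholesterol synthesis genes LSS (lanosterol synthase) rose by 0.25 (adjusted p = 0.0467). No gene passed in limma in the lists of heat shock proteins, p53 targets, E2F-linked apoptosis genes, the unfolded protein and ATF4 response, interferon-stimulated genes, lysosome and autophagy, hypoxia, secreted factors of senescence, ribosome biogenesis or oxidative phosphorylation. At an unadjusted p under 0.05 these lists held between 0 and 5 genes on the lower side and 0 to 3 on the higher. Their medians lay between -0.06 and 0.03. On the lower side were 21 of 28 unfolded protein and ATF4 genes, 18 of 24 hypoxia genes and 16 of 24 ribosome biogenesis genes. For interferon-stimulated genes it was 15 of 30 and for lysosome and autophagy genes 11 of 26, against 48.1% of all genes.

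SMYD2 without RB was fitted in the same way, as SMYD2 against control on the other 8 arrays, where only the SMYD2 arm was transfected. There 0 of 19775 genes passed (smallest limma adjusted p = 0.705), with 1282 (6.48%) at an unadjusted p under 0.05. Fitted on all 16 arrays with the block, this comparison called 0 genes in limma, with 868 at an unadjusted p under 0.05, and the comparison of both constructs with RB likewise called 0, with 1236. On the 8 arrays the 260 cell cycle genes had a median difference of -0.06 for SMYD2 alone, with 176 on the lower side. Of the 95 genes that fell with RB present, 84 were lower with SMYD2 alone (median -0.12), and of the 38 that rose 35 were higher (median 0.16). Over all genes 8956 of 19775 were lower in SMYD2 against control.

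These values rested in part on SMYD2 array 1, which stood apart in the ACTB measure of RNA quality. Its ACTB 3′ minus 5′ signal was 3.53 and that of its partner, control array 1, was 2.46. On the 8 arrays of the main comparison the signal ran from 0.55 to 1.63. For GAPDH the differences were small, at 0.16 on SMYD2 array 1 and 0.055 on control array 1, against 0.02 to 0.10 on those 8 arrays. The mean of the kinesin and spindle list differed between SMYD2 and control by -0.32 in pair 1, against -0.13, -0.03 and -0.04 in pairs 3, 4 and 5. For the 12 lists together the pair means were -0.18, -0.06, -0.03 and 0.0041. Without SMYD2 array 1, in the fit of the remaining 15 arrays, 131 of the 260 cell cycle genes were lower with SMYD2 alone (median -0.000315), while 10237 of all 19775 genes were. The median was then -0.02 for the 95 genes, with 57 lower, and 0.05 for the 38 genes, with 32 higher. Without all arrays numbered 1, 163 of the 260 were lower (median -0.02), 80 of the 95 were lower (median -0.05) and 36 of the 38 were higher (median 0.10).

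Control cells were not transfected, so the difference of SMYD2 minus control also holds any effect of transfection. The interaction, the difference with RB minus that without it, was tested over all 16 arrays. It cannot tell that effect apart from a dependence of SMYD2 on RB. It called 0 genes (smallest limma adjusted p = 0.993), with 786 genes (3.97%) at an unadjusted p under 0.05, 442 lower and 344 higher (2.24% and 1.74%). That split turned round in some fits, to 433 lower and 477 higher without SMYD2 array 1 and 281 and 301 without the block. The same held without the arrays numbered 3, with 332 and 421. The split kept its direction in the other fits, with 296 and 98 among genes with a mean of at least 6 and 448 and 362 without the variance trend. Leaving out the arrays numbered 1, 4 or 5 gave 462 and 353, 376 and 199, and 269 and 230. Each of these fits again called 0 genes. Of the 260 cell cycle genes 222 had an interaction below 0, with 66 lower and 0 higher at an unadjusted p under 0.05. These counts were 234, 111 and 2 without SMYD2 array 1, and 222, 42 and 0 without the block.

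For single genes the interaction varied, and none passed the adjustment (smallest limma adjusted p = 0.993). The genes named here were called on the difference with RB, which is itself part of the interaction. Their unadjusted p is thus biased toward small values. HMMR differed by -0.44 with RB and by -0.06 without it, an interaction of -0.38 (unadjusted p = 0.000778). For SPC24 the values were -0.47 and 0.08, an interaction of -0.55 (unadjusted p = 0.0006). H2AC15 rose by 0.55 with RB and differed by 0.06 without it (interaction 0.49, unadjusted p = 0.00244). Without SMYD2 array 1 these 3 interactions were -0.39, -0.49 and 0.50. CFD differed by 0.51 with RB and 0.47 without it, NPTX2 by 0.56 and 0.47, and CXCL13 by -0.47 and -0.37, with interactions of 0.04, 0.09 and -0.10. Without SMYD2 array 1 the differences without RB were 0.22, 0.17 and -0.26, and the interactions were 0.30, 0.39 and -0.21. RB1 had an interaction of 0.60 (unadjusted p = 0.0758), and of 0.76 without that array (unadjusted p = 0.0237).

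**Figure D4:**
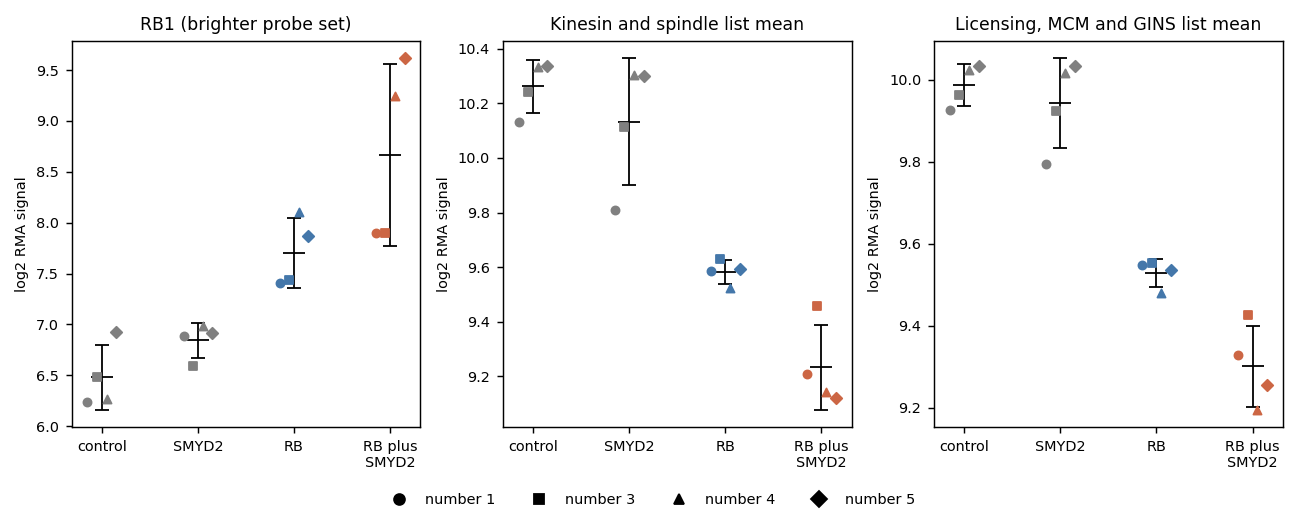
Log2 RMA signal (vertical) of the brighter RB1 probe set and of the means of the kinesin and spindle list and the licensing, MCM and GINS list in the 4 groups, with 1 symbol per array by number, and the mean ± SD (n = 4) in black. Control and SMYD2 lie close together, RB lies below them in both lists and RB plus SMYD2 lowest, while RB1 rises in the same order of groups.

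The arrays read as bone-derived cells throughout. RUNX2 lay between 12.4 and 12.7, SP7 between 9.64 and 10.6, ALPL between 11.8 and 12.7 and SPARC between 11.6 and 12.1. Among haematopoietic and endothelial markers PTPRC lay between 3.61 and 3.95, CDH5 between 4.09 and 4.28 and KDR between 3.81 and 3.94. Others read higher, with HBB between 6.49 and 6.77, CD3E between 5.63 and 5.89 and PECAM1 between 5.89 and 6.48, where the difference of 0.27 did not pass (limma adjusted p = 0.296). Some epithelial and mesenchymal markers were bright in this line, with EPCAM between 9.05 and 9.61 and THY1 between 10.1 and 11.2. Of the 5 marker lists, 1 gene changed: the smooth muscle gene CNN1 fell by 0.44 ± 0.09 (limma adjusted p = 0.0472), with RB array 3 at 8.98 and the other RB arrays between 6.5 and 7.39. The mean of that list lay between 7.94 and 8.25 with RB and between 7.96 and 8.34 with both, and the means of the other 4 marker lists overlapped between the groups as well. The ACTB 3′ minus 5′ signal was 1.63, 0.82, 0.56 and 1.07 with RB and 1.17, 1.215, 0.88 and 0.55 with both, lower in pairs 1 and 5 and higher in pairs 3 and 4. Between arrays of 1 arm, Pearson correlations across probe sets lay between 0.992 and 0.997.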

How the data were processed

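Per the submitters' processing notes, the deposited log2 values come from RMA, with no version named. They form 1 table of 54675 probe sets by 16 arrays. It was not stated whether RMA was run on all 16 together. RMA keeps no detection call, and precision is limited by the number of arrays. The platform annotation gave 1 gene symbol for 41097 probe sets, several for 1801 and none for 11777. The probe set with the highest mean over 16 arrays stood for each of 19775 genes. The other 13578 probe sets were tested apart, with 3 called, and name no gene.

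RB plus SMYD2 was tested against RB with limma 3.58.1 in R 4.3.3 (lmFit on 8 arrays with the array number as a block, eBayes with a trend, 3 residual and 8.46 prior degrees of freedom), two-sided, Benjamini-Hochberg adjusted, threshold 0.05. SMYD2 against control and RB against control were fitted in the same way on their own 8 arrays, and the interaction on all 16 with the block. Same-numbered arrays deviated together from their group means (correlations 0.488, 0.533, 0.423 and 0.145 for numbers 1, 3, 4 and 5), which is the basis of the pairing. The highest correlation with another number was 0.375 for number 5 and 0.401 for number 4. Simulated data for RB plus SMYD2 against RB held 19775 genes. Of 100 genes changed by 0.4, 90% were recovered, and of 100 changed by 0.8, 100%, with 10 false calls. The noise was drawn independently for each gene and array from the same model that was then fitted, with its fitted variances. Recovery under noise shared between genes or arrays was not tested.

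Members and gene lists were chosen with earlier results of these data known, so no list was tested and no p over a list is given. Named were RB1, SMYD2, L3MBTL1, the E2F, DP, pocket protein and MuvB list, the 12 largest called changes in each direction and the 4 largest absolute differences of each list discussed. Other genes named were chosen after their values were seen. Promoters came from RefSeq (GRCh38.p14), 1 per symbol. The 250 bases before the start were searched and 150 printed. Alternatives covered the block, the samples, scaling, probe set choice, a filter on dim genes, the variance trend, array weights and each pair left out. The random block and the fits of SMYD2 against control and of the interaction without the SMYD2 array numbered 1 were added after seeing the data. Plots used matplotlib 3.10.9.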

Additional observations from a re-analysis of the deposited data

Results flagged for a closer look

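In 10 of 148 sets of 4 arrays checked, the highest or lowest array stood farther from the rest than Dixon's 95% limit allows, and chance alone flags about 1 in 20 such sets. RB array 3 was the lowest for CCDC150 at 7.734, the highest for the mean of the G1 cyclin and CDK inhibitor list at 9.451 and the highest for the mean of the cholesterol synthesis list at 9.833. Array 3 of RB plus SMYD2 was likewise the highest for the G1 cyclin and CDK inhibitor list, at 9.355, and the lowest for LOC100996756, at 7.34. RB array 4 was the highest for TFDP2 at 9.717 and for the mean of the mismatch repair and checkpoint kinase list at 9.208. RB array 5 was the lowest for E2F6 at 8.741. In RB plus SMYD2, array 5 was the lowest for E2F2 at 7.993 and array 1 the highest for NPTX2 at 7.641. CCDC150 was lower and LOC100996756 and NPTX2 were higher with both constructs in 4 of 4 pairs.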

How the results depend on the processing

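All 133 called genes that were tested kept their sign under every alternative, but their number did not hold. Alternatives that changed only the block, the variance trend, the filter or the other groups could not alter a difference, so the sign was fixed there. The paired fit called 133 genes (95 lower, 38 higher), with 2132 at an unadjusted p under 0.05. Without the replicate block 0 were called and 1107 had that p; with all 16 arrays and the block 0 and 1236; with all 16 and no block 0 and 856. The number as a random block gave 0, eBayes without a trend 0, and all 16 arrays without the SMYD2 array numbered 1, with the block, 1. Centring each array on its median gave 84 (59 lower, 25 higher), quantile normalization 124 (72 lower, 52 higher), the mean of all probe sets 56, and array weights 481 and 3363. Leaving out single pairs gave from 0 to 284 called genes and from 1200 to 2959 at that p. The interaction called 0 genes under every alternative run.

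The medians of the mitosis, replication and repair lists moved by less than the spread between pairs, apart from that of deoxynucleotide supply without pair 3. With a pair left out, the medians ran from -0.23 to -0.14 for deoxynucleotide supply, from -0.13 to -0.066 for the E2F list, from -0.14 to -0.061 for G1 cyclins and CDK inhibitors, from -0.061 to -0.0063 for heat shock proteins, from -0.072 to -0.0056 for p53 targets and from 0.0080 to 0.045 for osteoblast genes. Array weights gave -0.13 for the E2F list, -0.081 for G1 cyclins and -0.054 for p53 targets. In genes with a mean of at least 6 the median was -0.15 for G1 cyclins, 0.20 for histones and -0.11 for secreted senescence factors. The mean of all probe sets gave 7e-04 for G1 cyclins, and quantile normalization 0.022 for oxidative phosphorylation. The cause of these moves was not tested.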
